A study of Homo sapiens with 18 samples.

Results

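The genes described are 6 cut-class homeobox genes: ONECUT1, ONECUT2, ONECUT3, CUX1, CUX2 and SATB1. They are 6 of the 19775 genes the array names through a single symbol. Every probe set of the expression array that the probe-to-gene table assigns to 1 of these symbols alone was taken, which gave 17 of the 54613 probe sets on the array that are not platform controls. ONECUT2 and CUX1 had 5 probe sets each, SATB1 had 3, CUX2 had 2, and ONECUT1 and ONECUT3 had 1 each. ONECUT2 is the gene the study manipulated, so the weight lies on its relatives.

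Proteins of this class bind DNA through a homeodomain and 1 or more cut domains. ONECUT1, also called HNF6, is known as a factor of liver and pancreas, and ONECUT2 and ONECUT3 are its paralogues. CUX1, the CCAAT displacement protein, is widely expressed, and its locus also gives rise to CASP, a Golgi protein made by alternative splicing. CUX2 is best known as a factor of upper-layer neurons of the cerebral cortex. SATB1 binds AT-rich DNA, shapes chromatin loops and is best known from T cells.

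The data came from 22Rv1 and LNCaP, established human prostate cancer cell lines, grown in RPMI medium with serum. Each of 6 groups had 3 arrays: 22Rv1 control, 22Rv1 with an ONECUT2 overexpression construct, 22Rv1 labelled scramble shRNA, 22Rv1 labelled ONECUT2 shRNA, LNCaP control and LNCaP with the ONECUT2 overexpression construct. The construct carried the full-length ONECUT2 cDNA with a Myc and DDK tag in a lentiviral vector, and transduced cells were kept as stable lines under puromycin. The treatment label of both control groups reads vehicle, and the labels do not say whether those cells carried an empty vector or were selected. The protocol names more than 1 shRNA clone against ONECUT2, and in the labelled ONECUT2 shRNA group every array title carries the same number after the letters sh. The titles of the scramble group carry another number in the same form. The labels do not say whether a group's 3 arrays are separate cultures; the p-values therefore reflect array-to-array spread, possibly technical. The 22Rv1 control arrays enter 4 comparisons of 2 groups and the arrays labelled scramble enter 2, so these are not independent. The test of how the overexpression effect differed between the lines uses the control and overexpression arrays of both lines again.

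Values are log2 expression values. Median values per array lay between 3.26 and 3.34. A level of 4 was used as a guide to background, since 38.3% to 40.0% of probe sets per array exceeded it. Within groups the lowest correlation between arrays was 0.996 to 0.997, but 0.975 in LNCaP overexpression. Of 7 prostate luminal markers measured, all exceeded 4 in LNCaP control and 6 did in 22Rv1 control, where TMPRSS2 had a mean of 3.78. Their summed log2 value per array lay between 61.4 and 61.8 in 22Rv1 control and between 52.2 and 53.7 in 22Rv1 overexpression. It lay between 76.6 and 76.9 in LNCaP control and between 53.6 and 62.4 in LNCaP overexpression. The array's beta-actin controls, read at the 3' end relative to the 5' end as a measure of RNA integrity, differed by 8.06 ± 0.70 (SD, n = 3) in 22Rv1 overexpression and by 4.11 ± 0.41 in 22Rv1 control (exact two-sided permutation p = 0.1, the smallest that 3 arrays against 3 allow). In LNCaP overexpression and control the values were 2.85 ± 0.56 and 2.94 ± 0.25. The part of these shifts in the results on 22Rv1 overexpression was not tested.

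Of the 17 probe sets, 11 exceeded 4 on at least 3 arrays. The other 6 read under 4 on all 18 arrays: both single probe sets of ONECUT1 and ONECUT3, and 1 probe set each of ONECUT2, CUX1, CUX2 and SATB1. Where all arrays of both groups read under 4, values are given without a direction. Where only the lower group did so, the fitted difference rests partly on background, and the difference of the higher group's mean from 4 is given as a lower bound.

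The probe set of ONECUT1 (210745_at) read between 2.67 and 3.38 over all arrays. Its group means ran from 2.77 ± 0.10 (SD, n = 3) in the arrays labelled scramble to 3.12 ± 0.23 in LNCaP overexpression, and each group overlapped the next in that order. ONECUT3 was read by 234109_x_at, whose suffix marks probes that may match other transcripts too, and it lay between 3.29 and 3.86. Neither paralogue thus reached the background guide in any group. The fitted differences of ONECUT1 in 22Rv1 and LNCaP overexpression were -0.07 ± 0.12 (SE) and 0.30 ± 0.12, with limma adjusted p = 0.709 and 0.0715. For ONECUT3 they were -0.16 ± 0.13 and 0.24 ± 0.13 (adjusted p = 0.402 and 0.164). Without LNCaP overexpression replicate 1 both passed the threshold in LNCaP (0.35 and 0.38, adjusted p = 0.0379 and 0.0162), as did ONECUT1 without replicate 3 (0.37, adjusted p = 0.0481), still at values under 4.

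ONECUT2 itself was read at very different levels by its probe sets, which are not compared with each other. Only 207676_at was designed on the RefSeq mRNA that the protocol names for the construct. It read 2.99, 2.74 and 3.04 in LNCaP control and 5.23, 7.17 and 7.43 in LNCaP overexpression. All overexpression arrays lay above all controls, at least 6.10-fold above the level of 4 on average (fitted difference 3.68 ± 0.40, adjusted p = 2.79e-06). In 22Rv1 the same probe set read 3.05, 3.44 and 3.25 in control and 4.78, 4.14 and 4.21 in overexpression, a fitted rise of 1.13 ± 0.40 near background (adjusted p = 0.0417). That call was lost whichever of the 6 arrays was left out (0.93 to 1.25, adjusted p = 0.0582 to 0.153) and when values under 4 were set to 4 (0.38, adjusted p = 0.435). It was kept in a fit of these 22Rv1 arrays alone. The main fit shares 1 spread over all groups, and the SD was 1.21 in LNCaP overexpression against 0.19 in 22Rv1 control and 0.35 in 22Rv1 overexpression. The rise differed between the lines by 2.55 ± 0.56 (adjusted p = 0.00387).

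The other ONECUT2 probe sets were designed on other sequences. In 22Rv1 control 230271_at read 7.22, 7.23 and 7.15, and in overexpression 8.28, 8.23 and 8.57, a rise of 1.16 ± 0.15 (adjusted p = 3.93e-06). In LNCaP it read 5.86, 5.85 and 5.71 in control and 6.53, 6.10 and 6.37 in overexpression, higher by 0.53 ± 0.15 (adjusted p = 0.00969, but 0.0915 in a fit of these arrays alone). Neither pair of groups overlapped. Probe set 239911_at read 8.59, 8.81 and 8.85 in 22Rv1 overexpression, against 8.23, 8.15 and 8.25 in control. It rose by 0.54 ± 0.16 (adjusted p = 0.013), a call lost without overexpression replicate 3 (0.49, adjusted p = 0.0568). In LNCaP it read 6.58, 6.53 and 6.72 in control and 7.23, 7.31 and 7.28 in overexpression, a rise of 0.66 ± 0.16 (adjusted p = 0.00272). The groups did not overlap in either line. Probe set 233446_at went the other way in 22Rv1, where it fell by 0.97 ± 0.23 (adjusted p = 0.00254), from 5.04, 5.48 and 5.75 to 4.70, 4.35 and 4.32. In LNCaP it differed by 0.23 ± 0.23 (adjusted p = 0.5). The last probe set, 233441_at, read between 2.43 and 3.12 on all arrays.

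In the 22Rv1 arrays labelled scramble, ONECUT2 239911_at read 6.63, 6.71 and 7.08. In those labelled ONECUT2 shRNA it read 8.46, 9.00 and 9.12, and in the 22Rv1 control 8.23, 8.15 and 8.25. The arrays labelled ONECUT2 shRNA thus lay above those labelled scramble, by 2.05 ± 0.16 (adjusted p = 3.49e-08), which goes against the label. Probe sets 230271_at and 233446_at differed the same way, by 1.97 ± 0.15 and 1.74 ± 0.23. Against the 22Rv1 control, the arrays labelled ONECUT2 shRNA were higher for 230271_at, by 1.37 ± 0.15 (limma adjusted p = 3.60e-05). For 239911_at they were higher by 0.65 ± 0.16 (adjusted p = 0.0357), a call lost in 5 of the 6 fits without 1 array. For 233446_at the difference was 0.01 ± 0.23 (adjusted p = 0.993). Group names below follow the labels, and each direction in the shRNA groups carries this discrepancy.

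**Figure D1:**
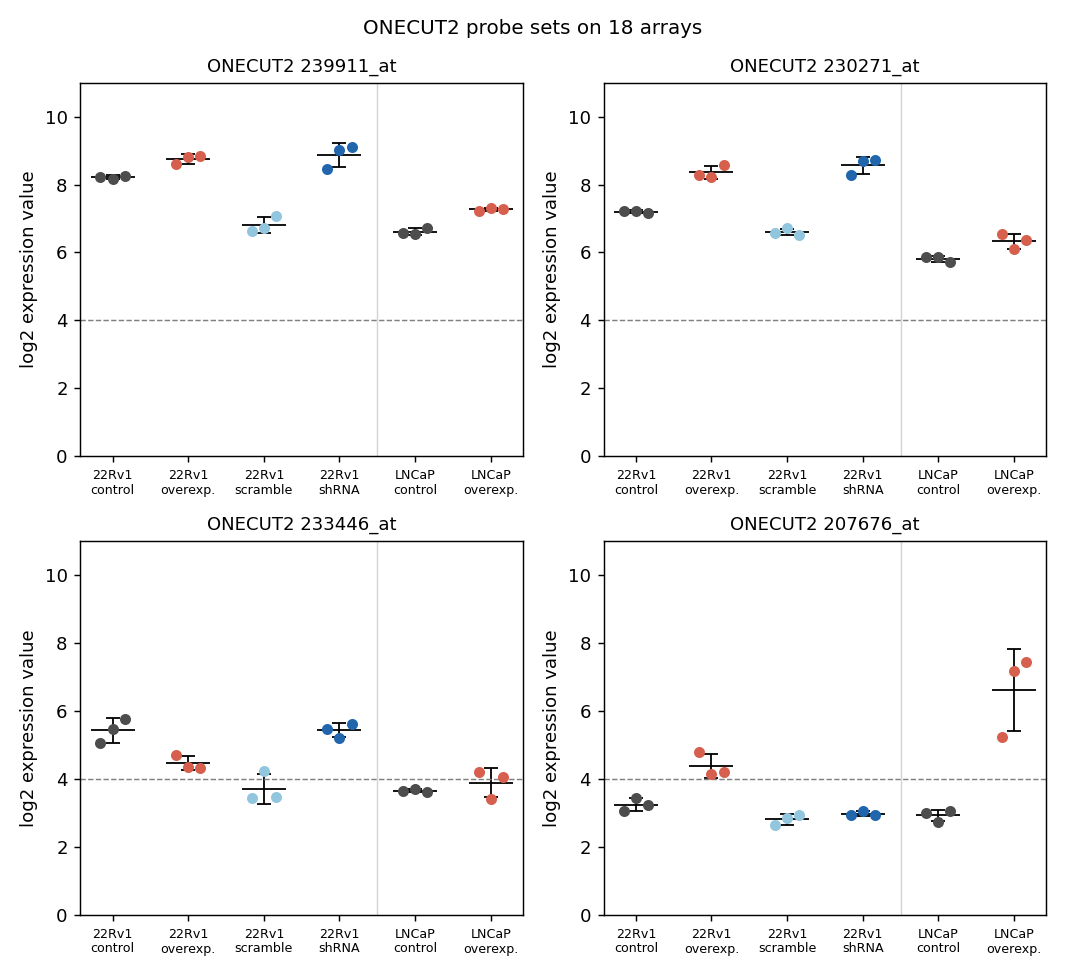
Log2 expression value (y axis) of 4 ONECUT2 probe sets in the 6 groups (x axis, 3 arrays each; short for overexpression, the labelled scramble and the labelled ONECUT2 shRNA). Points are arrays, black bars the mean and SD, and the dashed line the level of 4; in 239911_at the arrays labelled scramble lie between 6.63 and 7.08 and those labelled shRNA between 8.46 and 9.12.

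Among the 5 genes beside ONECUT2, the largest differences with overexpression were those of CUX2 and SATB1 in 22Rv1 and of CUX2 in LNCaP, where SATB1 stayed under 4 on all arrays. In 22Rv1 overexpression, 5 of the 12 probe sets of the 5 genes beside ONECUT2 were called at an adjusted p under 0.05, 3 higher and 2 lower, where 30.4% of all probe sets were called (16.1% higher and 14.3% lower). The lower ones were CUX1 214743_at and 202367_at, the latter under 4 on all arrays of both groups. In LNCaP overexpression 4 of 12 were called, 1 higher and 3 lower, against 31.6% of all (16.1% higher and 15.5% lower). In bulk samples a smaller share of expressing cells and less RNA per cell cannot be told apart. With 12 probe sets, these shares lie near the background in LNCaP and somewhat above it in 22Rv1, and nothing particular to the family is read from them. The median difference over these 12 probe sets was -0.04 in 22Rv1 and 0.11 in LNCaP, against -0.05 and 0.02 over all probe sets.

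**Figure D2:**
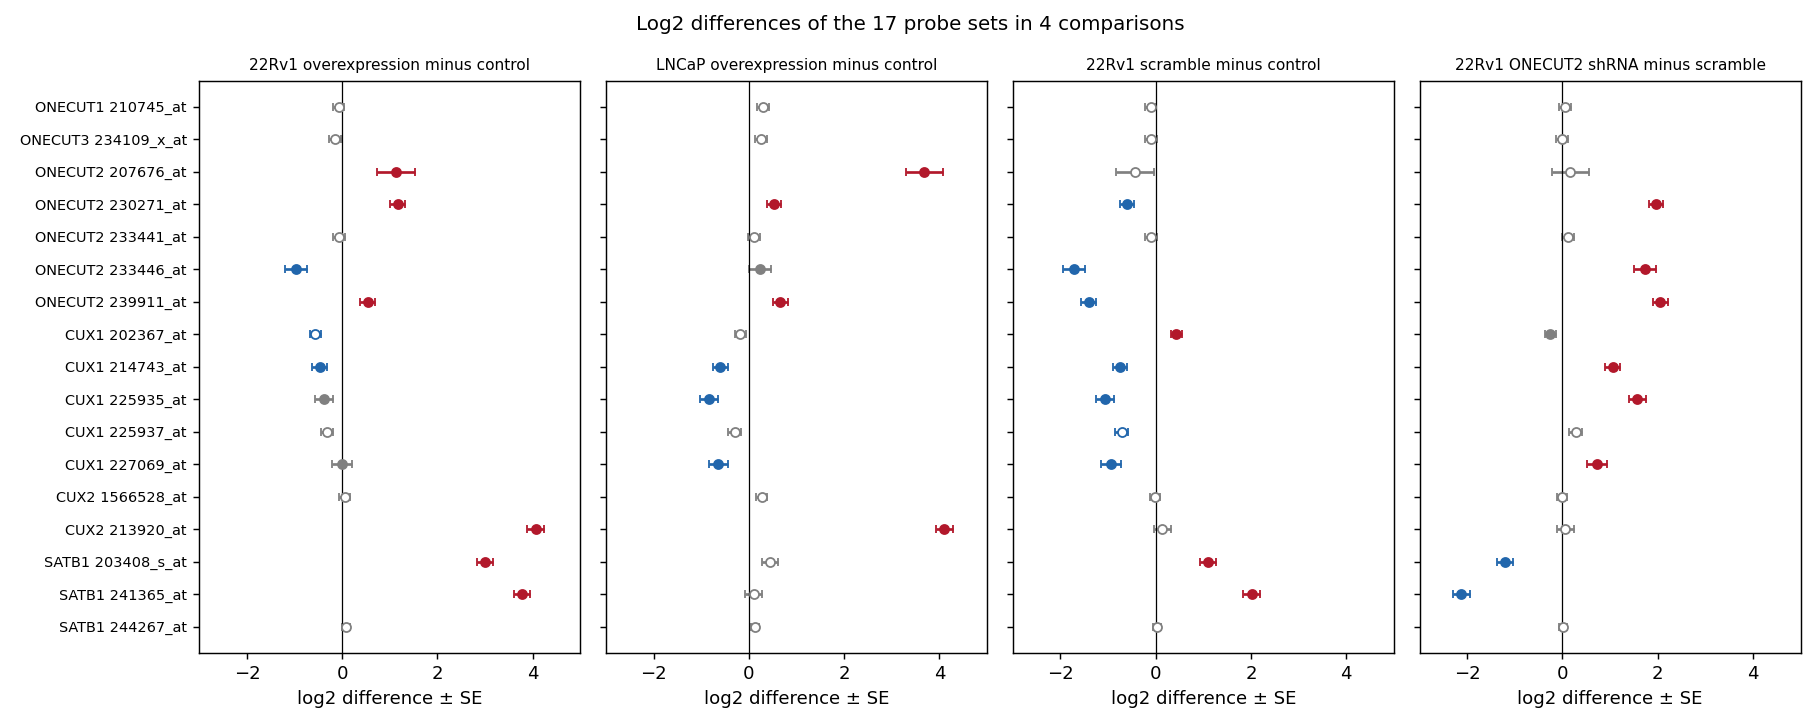
Log2 difference with its SE (x axis) for each of the 17 probe sets (y axis) in 4 comparisons. Red marks a call as higher, blue a call as lower, grey no call, and open circles mark probe sets under 4 on every array of both groups; CUX2 213920_at stands at 4.06 and 4.11 in the overexpression panels, while the SATB1 probe sets stand at 3.00 and 3.78 in 22Rv1 and at 0.44 and 0.10 in LNCaP.

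CUX2, read by 213920_at, stood low in 22Rv1 control, at 2.86, 3.02 and 2.79. In 22Rv1 overexpression it read 6.93, 7.06 and 6.87, so every overexpression array lay far above every control. It rose by at least 7.74-fold over the level of 4 (fitted difference 4.06 ± 0.18, adjusted p = 2.15e-12). In LNCaP control it read 3.66, 4.04 and 3.86, and in LNCaP overexpression 7.99, 7.54 and 8.34. The rise there was a fitted 17.2-fold (4.11 ± 0.18, adjusted p = 6.32e-13), with controls around the background guide. Replicate 1 of LNCaP overexpression, which stood apart in ONECUT2 207676_at, did not stand apart in CUX2.

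The fitted rises of CUX2 in the lines differed by 0.05 ± 0.25 (adjusted p = 0.926). With values under 4 set to 4, which removes the difference between the controls, the fitted value was 0.99 (adjusted p = 0.00258). It then reflects the levels of the overexpression groups, so no larger rise in LNCaP is read from it. Over all groups CUX2 was highest in LNCaP overexpression (7.96 ± 0.40, SD, n = 3), then 22Rv1 overexpression (6.95 ± 0.10), with no overlap between them. The other groups read about 4 or less, so no order is drawn among them. Their means were 3.85 ± 0.19 in LNCaP control and 2.89 ± 0.12 in 22Rv1 control. In the arrays labelled ONECUT2 shRNA and scramble they were 3.09 ± 0.19 and 3.03 ± 0.23. The arrays labelled ONECUT2 shRNA differed from those labelled scramble by 0.06 ± 0.18 (adjusted p = 0.9), all under 4.

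The other CUX2 probe set, 1566528_at, read between 1.87 and 2.46 on all arrays, so it was under 4 in both overexpression groups as well. The change in CUX2 therefore rests on 1 probe set. Of 5 neuron markers fixed as a check, 4 read under 4 on all arrays of 22Rv1 control and of 22Rv1 overexpression, and all 5 in both LNCaP groups. The exception was SNAP25, a synaptic fusion protein, at a mean of 8.20 in 22Rv1 control and 8.30 in overexpression. The summed log2 value of the neuron markers was 18.6 to 19.2 per array in 22Rv1 control and 18.2 to 18.5 in overexpression, and 11.7 to 12.6 and 12.4 to 13.1 in LNCaP control and overexpression.

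SATB1 was read by 203408_s_at and 241365_at, which correlated at 0.968 over the 18 arrays. In 22Rv1 control 203408_s_at read 2.96, 3.06 and 2.99, and in 22Rv1 overexpression 6.41, 5.61 and 5.99. The groups lay far apart, with a rise of at least 4.01-fold over the level of 4 (fitted difference 3.00 ± 0.17, adjusted p = 6.03e-11). The other probe set, 241365_at, read 2.52, 2.40 and 2.18 in control and 6.49, 5.95 and 5.99 in overexpression. It rose at least 4.43-fold over 4 (fitted 3.78 ± 0.17, adjusted p = 4.90e-12).

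In LNCaP, SATB1 stayed under 4 on all arrays. Probe set 203408_s_at read 1.52, 1.99 and 1.71 in control and 2.31, 2.08 and 2.14 in overexpression (difference 0.44 ± 0.17, adjusted p = 0.0544, and 0.0412 in a fit of these arrays alone). Probe set 241365_at read 1.99, 1.66 and 1.61 in control and 2.01, 1.42 and 2.12 in overexpression, overlapping ranges (0.10 ± 0.17, adjusted p = 0.74). In the test of the difference, the LNCaP effect minus the 22Rv1 effect was -2.56 ± 0.24 for 203408_s_at (adjusted p = 2.29e-07) and -3.68 ± 0.25 for 241365_at (adjusted p = 3.12e-09). The sizes rest partly on background, since the controls of both lines read under 4. With values under 4 set to 4 they were -2.004 and -2.15 (adjusted p = 2.27e-07 and 1.31e-08), and the size for 241365_at shrank by over 1.5 times. In that setting both LNCaP groups and the 22Rv1 control read 4 on every array. The values are then the 22Rv1 rises with the sign reversed, so they are no separate check of a difference between the lines. Of all probe sets, 21.3% were called in the main test of the difference. Of the 12 probe sets beside ONECUT2, only these SATB1 probe sets were.

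SATB1 also differed between the 22Rv1 shRNA groups. In the arrays labelled scramble 203408_s_at read 4.13, 4.28 and 3.92, and in those labelled ONECUT2 shRNA 3.17, 2.73 and 2.80. For 241365_at the values were 4.36, 4.48 and 4.31 against 2.14, 2.48 and 2.15. The groups did not overlap for either probe set. The arrays labelled ONECUT2 shRNA were lower by 1.21 ± 0.17 (adjusted p = 5.90e-05) and 2.12 ± 0.17 (adjusted p = 8.57e-08), and they lay close to the 22Rv1 control, with differences of -0.10 and -0.11 (adjusted p = 0.892 and 0.885). The arrays labelled scramble were higher than the 22Rv1 control, by 1.11 ± 0.17 (adjusted p = 1.90e-04) and 2.01 ± 0.17 (adjusted p = 2.31e-07). Both comparisons use the same scramble arrays. All these values lie near the guide of 4: set to 4 where lower, the differences between scramble and control were 0.14 and 0.38 and lost their calls (adjusted p = 0.441 and 0.0739), as did those between the arrays labelled ONECUT2 shRNA and scramble (-0.14 and -0.38, adjusted p = 1 and 0.0622).

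**Figure D3:**
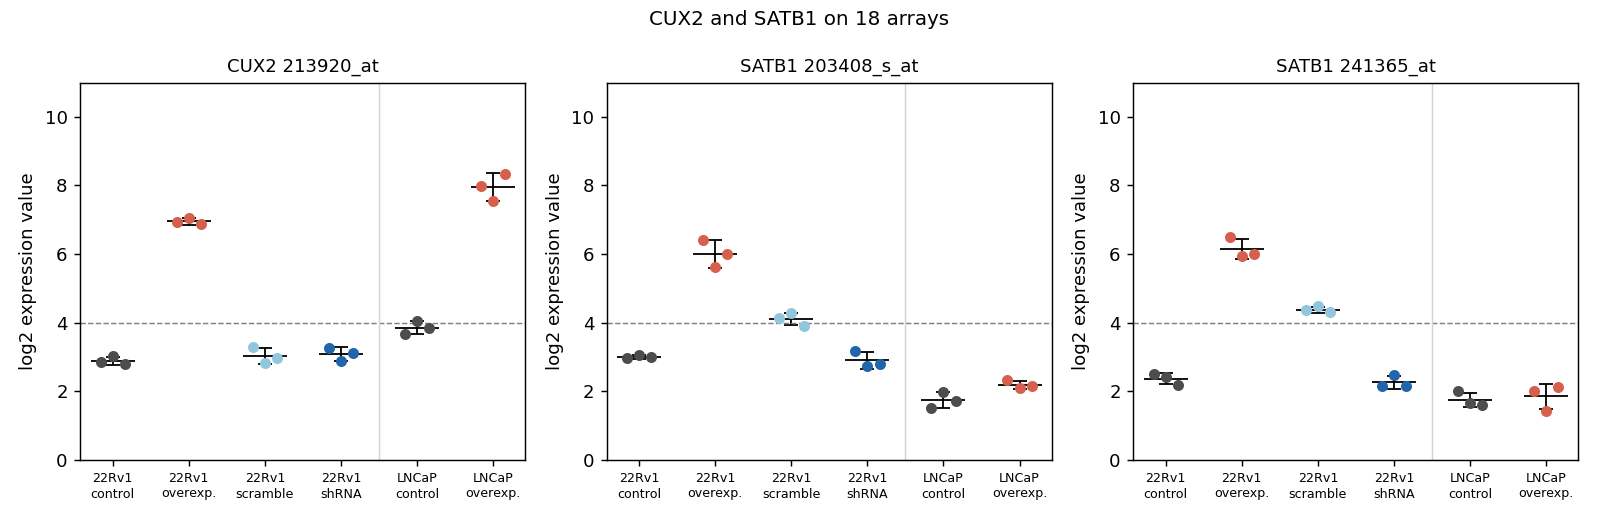
Log2 expression value (y axis) of CUX2 213920_at and SATB1 203408_s_at and 241365_at in the 6 groups (x axis, 3 arrays each). Points are arrays, black bars the mean and SD, and the dashed line the level of 4; CUX2 lies between 6.87 and 8.34 in both overexpression groups, whereas SATB1 reaches 5.61 to 6.49 in 22Rv1 overexpression alone and stays at 2.31 or less in LNCaP.

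The third SATB1 probe set, 244267_at, read between 1.57 and 1.98 on all arrays and followed neither of the others. Over all groups 203408_s_at was highest in 22Rv1 overexpression (6.0 ± 0.40, SD, n = 3), then in the arrays labelled scramble (4.11 ± 0.18), with no overlap between them. The other groups read under 4 on all arrays, so no order is drawn among them: 3.00 ± 0.05 in 22Rv1 control, 2.90 ± 0.24 in the arrays labelled ONECUT2 shRNA, 2.18 ± 0.12 in LNCaP overexpression and 1.74 ± 0.23 in LNCaP control. As SATB1 is a lymphocyte factor, leukocyte markers were read as a check. Of 6 measured, 5 were under 4 on all arrays of 22Rv1 control and of 22Rv1 overexpression. In 22Rv1 overexpression PTPRC, the pan-leukocyte antigen CD45, had a mean of 2.35, and the T-cell receptor subunits CD3D and CD3E 2.71 and 2.86. In 22Rv1 control their means were 2.47, 2.80 and 3.11. LCP1, an actin-bundling protein, fell by 1.70 ± 0.24 (adjusted p = 1.50e-05), and the summed log2 value of the 6 markers was 20.1 to 20.5 per array in control and 17.58 to 17.95 in overexpression.

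The windows just upstream of the annotated starts of CUX2 and SATB1 are shown because both genes rose in 22Rv1 overexpression. Sequences are from RefSeq on GRCh38.p14, whose promoter table held 5 of the 6 genes. Each run covers the 250 bases before the start, 5′ to 3′ on the gene's strand, at chr12:111033915-111034164 on the plus strand for CUX2 and chr3:18445593-18445842 on the minus strand for SATB1.
CUX2: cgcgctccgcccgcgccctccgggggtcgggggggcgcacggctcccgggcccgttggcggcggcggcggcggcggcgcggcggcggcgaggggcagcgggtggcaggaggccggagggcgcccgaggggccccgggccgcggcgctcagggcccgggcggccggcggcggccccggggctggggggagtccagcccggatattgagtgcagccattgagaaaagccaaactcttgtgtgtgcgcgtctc
SATB1: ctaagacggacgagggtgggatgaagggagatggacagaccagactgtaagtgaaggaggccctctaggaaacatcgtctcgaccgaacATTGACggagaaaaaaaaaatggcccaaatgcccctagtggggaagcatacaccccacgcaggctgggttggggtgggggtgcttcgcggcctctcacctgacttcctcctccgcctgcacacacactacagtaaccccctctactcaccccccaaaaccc
Capitals mark a motif match. Both strands were searched for 4 short motifs linked to ONECUT or CUX proteins. The motif ATCAAT was found in 5.58% of 35116 promoters of the same length. The motif ATTGAC, which was chosen after the sequences had been seen, was found in 5.17% of them. The palindrome ATCGAT was found in 0.655%. The motif CCAAT was found in 32.0%. SATB1 held 1 match to ATTGAC, which begins 161 bases before the start, and CUX2 held none of the 4 motifs. No motif overlapped another in these windows. No source used here names the genome build behind the array's probes. The GC share was 81.2% in the CUX2 window and 57.2% in that of SATB1.

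CUX1 was read well above 4 in every group by 214743_at and 225935_at. The probe set with the highest mean, 214743_at, read 10.10, 10.04 and 10.07 in 22Rv1 control and 9.62, 9.43 and 9.74 in 22Rv1 overexpression. It fell by 0.47 ± 0.16 on the log2 scale (adjusted p = 0.0254), a call lost in 5 of the 6 fits without 1 array: without any 1 of the 3 controls, or without overexpression replicate 1 or 2 (-0.46, -0.49, -0.47, -0.49 and -0.39, adjusted p = 0.0537 to 0.117). In LNCaP control it read 9.95, 9.41 and 9.82, and in LNCaP overexpression 9.22, 8.85 and 9.29. The overexpression arrays lay below the controls, lower by 0.60 ± 0.16 (adjusted p = 0.00491), though in a fit of these arrays alone the adjusted p was 0.0662.

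Probe set 225935_at read 8.28, 7.58 and 7.83 in LNCaP control and 7.28, 6.70 and 7.23 in LNCaP overexpression, a fall of 0.83 ± 0.19 (adjusted p = 0.00153). In 22Rv1 it read 9.21, 9.33 and 9.16 in control and 8.76, 9.01 and 8.79 in overexpression. The 22Rv1 groups did not overlap, but the difference of -0.38 ± 0.19 was not called (adjusted p = 0.144); a fit of these arrays alone called it (adjusted p = 0.00528). The difference between the lines was not called for either probe set (-0.13 ± 0.22 and -0.46 ± 0.26, adjusted p = 0.735 and 0.25). All these changes of CUX1 were under 2-fold.

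CUX1 moved more in the shRNA groups. Probe set 225935_at read 8.05, 8.44 and 8.03 in the arrays labelled scramble and 9.84, 9.48 and 9.94 in those labelled ONECUT2 shRNA. The groups were well apart, with the latter 2.98-fold higher (1.58 ± 0.19, adjusted p = 8.70e-06). For 214743_at the values were 9.16, 9.64 and 9.17 against 10.35, 10.31 and 10.48, a 2.08-fold difference (1.06 ± 0.16, adjusted p = 1.01e-04). Against the 22Rv1 control, the arrays labelled scramble were lower, by 1.06 ± 0.19 for 225935_at (adjusted p = 7.69e-04) and by 0.75 ± 0.16 for 214743_at (adjusted p = 0.00321). The arrays labelled ONECUT2 shRNA differed from that control by 0.52 ± 0.19 and 0.31 ± 0.16 (adjusted p = 0.192 and 0.434). A fit of those 6 arrays alone called both (adjusted p = 0.0223 and 0.0436).

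Among the 12 probe sets beside ONECUT2, 5 were called between the arrays labelled ONECUT2 shRNA and scramble, 3 higher and 2 lower, where 12.2% of all probe sets were called (5.98% higher and 6.18% lower). Between scramble and control 7 were called, 3 higher and 4 lower, against 9.35% of all (4.41% higher and 4.94% lower). The lower ones include CUX1 225937_at, which read under 4 on all arrays of both groups, so no direction is drawn for it. With values under 4 set to 4, CUX1 225937_at and 227069_at and SATB1 203408_s_at and 241365_at lost their calls between scramble and control. That count thus rests partly on background. All calls between scramble and control, and between the arrays labelled ONECUT2 shRNA and scramble, were of CUX1 or SATB1 probe sets. Probe sets of the same gene are not independent, so nothing particular to the family is read from either count. Between the arrays labelled ONECUT2 shRNA and the control 0 were called by limma, against 2.22% of all; at an unadjusted p under 0.05 there were 2, CUX1 225935_at and 225937_at. In the arrays labelled scramble, ONECUT2 (239911_at, 230271_at and 233446_at) and CUX1 (214743_at and 225935_at) were thus lower than in the 22Rv1 control and in the arrays labelled ONECUT2 shRNA. The beta-actin difference was 3.88 ± 0.28 (SD, n = 3) in the arrays labelled scramble and 4.27 ± 0.04 in those labelled ONECUT2 shRNA (exact two-sided permutation p = 0.1), and its part in the result was not tested.

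**Figure D4:**
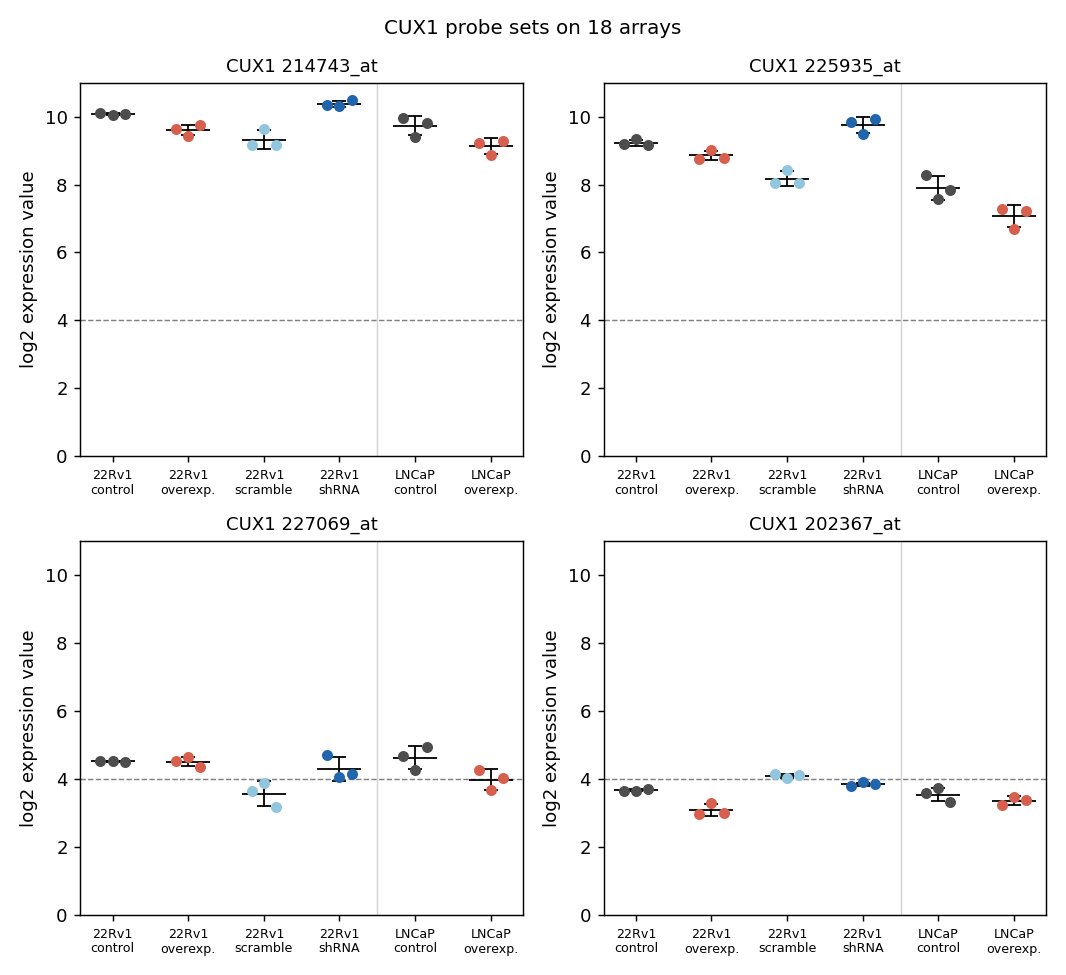
Log2 expression value (y axis) of 4 CUX1 probe sets in the 6 groups (x axis, 3 arrays each). Points are arrays, black bars the mean and SD, and the dashed line the level of 4; 214743_at and 225935_at are highest in the arrays labelled ONECUT2 shRNA (10.31 to 10.48 and 9.48 to 9.94), while 227069_at and 202367_at lie near 4.

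The weaker CUX1 probe sets did not all follow. In LNCaP, 227069_at was lower in overexpression, by 0.64 ± 0.21 (adjusted p = 0.0229), with 4.67, 4.26 and 4.94 against 4.26, 3.66 and 4.03. That call was lost without LNCaP control replicate 1 or 3 or overexpression replicate 2 (adjusted p = 0.0657, 0.13 and 0.122), and in a fit of these arrays alone (adjusted p = 0.0865). In 22Rv1 overexpression it differed by -0.002 ± 0.21 (adjusted p = 0.996). Against the arrays labelled scramble, which all read under 4, those labelled ONECUT2 shRNA were higher by 0.73 ± 0.21 (adjusted p = 0.0258), a call lost when values under 4 were set to 4 (0.29, adjusted p = 0.463) and without scramble replicate 1 or 3 or shRNA replicate 1 (adjusted p = 0.0561, 0.164 and 0.152).

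Probe set 202367_at, the CUX1 probe set designed on a RefSeq mRNA, went the other way from 214743_at and 225935_at in the arrays labelled scramble. It read 4.14, 4.03 and 4.12 there and 3.64, 3.66 and 3.70 in the 22Rv1 control, a fitted difference of 0.43 ± 0.12 (adjusted p = 0.0219). As the control read under 4, the lower bound is 0.097, or at least 1.07-fold. That call was lost without any 1 of the 3 controls or without scramble replicate 1 or 3 (adjusted p = 0.0546 to 0.0847). In 22Rv1 overexpression it read 2.98, 3.3 and 3.01, under 4 like the control. The last CUX1 probe set, 225937_at, read between 2.34 and 3.54 on all arrays. Over the 18 arrays 214743_at correlated at 0.87 with 225935_at, at 0.544 with 227069_at and at 0.135 with 202367_at.

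The control groups of the lines also differed at some of these probe sets. CUX1 225935_at was lower in LNCaP control than in 22Rv1 control, with a difference of -1.33 ± 0.19 (adjusted p = 8.14e-06), with no overlap, while 214743_at differed by -0.35 ± 0.16 (adjusted p = 0.0947). The ONECUT2 probe sets 239911_at and 230271_at were lower in LNCaP control, by 1.60 ± 0.16 (adjusted p = 8.32e-08) and 1.39 ± 0.15 (adjusted p = 2.51e-07). CUX2 213920_at and the SATB1 probe sets read about 4 or less in both controls, so no direction is drawn. Of the 12 probe sets beside ONECUT2, 5 were called between the lines, where 35.5% of all probe sets were, so nothing particular to the family is read from this. The 5 include CUX1 225937_at, which read under 4 on all arrays. With values under 4 set to 4, CUX1 225935_at alone of the 5 kept its call (-1.33, limma adjusted p = 9.10e-06).

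Genes linked to the family were read from lists, by the probe set with the highest mean of each gene. Of 14 ONECUT-linked genes of liver and pancreas measured, 4 exceeded 4 on at least 3 arrays: HNF4G, SOX9, TTR and HES1. In 22Rv1 overexpression 5 of 14 were called (median -0.04), where 30.4% of all probe sets were; 2 of these (TTR and PCK1) read under 4 on all arrays of both groups, and of the rest 1 was higher and 2 lower. In LNCaP overexpression 7 were called (median 0.07), against 31.6% of all; 4 of these (HNF4G, FOXA3, PCK1 and CYP7A1) read under 4 on all arrays, and of the rest 1 was higher and 2 lower. FOXA3, a forkhead factor of liver, had a mean of 4.17 in 22Rv1 overexpression, 0.17 above the guide, and of 2.44 in control (adjusted p = 2.87e-08). HNF4G, a nuclear receptor, fell by 1.64 ± 0.18 in 22Rv1 overexpression (adjusted p = 5.31e-07). SOX9, a factor of pancreatic and biliary progenitors, was higher in LNCaP overexpression by 1.78 ± 0.18 (adjusted p = 1.97e-07), from a mean of 3.73. HES1, a Notch target, fell there by 1.72 ± 0.19 (adjusted p = 6.65e-07). In the arrays labelled ONECUT2 shRNA, HNF4G was higher than in those labelled scramble by 1.84 ± 0.18 (adjusted p = 8.29e-07). TTR, transthyretin, was the other of 2 called there, at means under 4.

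Of 13 partners and targets of CUX1, 6 were called higher and 5 lower in 22Rv1 overexpression (median 0.02), where 16.1% of all probe sets were called higher and 14.3% lower. In LNCaP overexpression 3 were higher and 7 lower (median -0.52), against 16.1% and 15.5% of all. CCNA2, a cyclin, fell by 2.68 ± 0.10 (adjusted p = 3.10e-13) and by 4.78 ± 0.10 (adjusted p = 1.80e-17) in that order. E2F2, a cell cycle factor, fell by 2.80 ± 0.16 in 22Rv1 (adjusted p = 7.99e-11). CDKN1A, the cell cycle inhibitor p21, rose by 3.44 ± 0.15 in LNCaP (adjusted p = 4.19e-13). Between the arrays labelled ONECUT2 shRNA and scramble, 3 were higher and 3 lower, against 5.98% and 6.18% of all. CTSL, the protease cathepsin L, which cleaves CUX1, was higher by 1.59 ± 0.11 (adjusted p = 7.75e-09), and CDKN1A was lower by 1.48 ± 0.15 (adjusted p = 8.06e-07). Of the 13 genes, 12 exceeded 4 on at least 3 arrays, while the shares cover all probe sets, those at background included. The counts and shares are thus not alike, and no enrichment is read from them.

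Of 18 partners and targets of SATB1, 9 were called higher and 2 lower in 22Rv1 overexpression (median 0.27), against 16.1% and 14.3% of all. In LNCaP overexpression 4 were higher and 2 lower (median 0.02), against 16.1% and 15.5%. KAT2B, an acetyltransferase, rose by 1.40 ± 0.12 (adjusted p = 1.88e-08) and by 0.82 ± 0.12 (adjusted p = 1.86e-05). CDH1, the epithelial cadherin, rose by 0.79 ± 0.08 in 22Rv1 (adjusted p = 7.48e-08). S100A4, a calcium-binding protein, was lower in LNCaP overexpression, where all arrays read under 4, from a mean of 4.36 in control (adjusted p = 2.51e-06). Between the arrays labelled ONECUT2 shRNA and scramble, 2 were higher and 3 lower (median -0.01), against 5.98% and 6.18%. ERBB2, a receptor tyrosine kinase, was lower there by 0.80 ± 0.16 (adjusted p = 0.00221), and KAT2B by 0.54 ± 0.12 (adjusted p = 0.0048). Here 17 of the 18 genes exceeded 4 on at least 3 arrays, so the shares over all probe sets are again not a like measure. HDAC1 and KAT2B stand in both the CUX1 and the SATB1 list, so the counts of these lists overlap.

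The genes most like each member were those with the highest Pearson correlation over the 18 arrays among 11583 genes over 4 on at least 3 arrays. The 18 arrays fall into 6 groups, so these values mostly describe shared group levels. For CUX2 they were GIT2 (0.988), SCD5 (0.986) and RSPH14 (0.985). For SATB1 203408_s_at they were ADCYAP1 (0.976), STK24 (0.975) and HDAC5 (0.969). For CUX1 214743_at they were ZBED3 (0.936), NT5DC2 (0.91) and ERVMER34-1 (0.893), and for ONECUT2 239911_at KCNC1 (0.953), ETS2 (0.949) and ASIC1 (0.947).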

How the data were processed

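Total RNA was labelled with a 3' in vitro transcription kit and hybridised to Affymetrix Human U133 Plus 2 arrays, per the labels. The deposited values are log2 expression values made by the authors with GCRMA, per the submitters' processing notes, which state neither its version nor whether the arrays were normalized jointly. Probe sets were named from the platform's gene table, with symbols updated through RefSeq: 41091 had 1 symbol, 1801 several and 11721 none. All 54613 non-control probe sets on 18 arrays entered 1 model in limma 3.58.1 (R 4.3.3) with a mean per group, 12 residual degrees of freedom and trended, robust moderation. Benjamini-Hochberg adjustment ran over all probe sets within each of 7 comparisons, with calls under 0.05. No filter was applied. The model was checked on simulated data.

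All member probe sets were described. In lists, up to 2 called genes per comparison, those with the smallest p, were named. The members and lists were chosen with earlier results of these data known. Some listed genes were not analysed here. Alternatives covered the filter, probe set choice, moderation, scaling, a floor at 4, the arrays fitted, the replicate number and leaving out each array.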

Additional observations from a re-analysis of the deposited data

Results flagged for a closer look

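The response to the ONECUT2 construct differed between the lines for 5 of the 17 probe sets in the test of the difference (LNCaP effect minus 22Rv1 effect, limma adjusted p under 0.05), where 21.3% of all probe sets were called. SATB1, under 4 on all LNCaP arrays, had differences of -2.56 for 203408_s_at and -3.68 for 241365_at, which were -2.004 and -2.15 with values under 4 set to 4. The latter values are the 22Rv1 rises with the sign reversed, since every LNCaP array then reads 4. ONECUT2 differed in both directions: 2.55 for 207676_at, 1.20 for 233446_at and -0.64 for 230271_at. The last was lost in 7 of the 12 fits without 1 array. Groups of 3 arrays are too small for a test of single outlying arrays.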

How the results depend on the processing

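Of the 17 probe sets, 9, 7, 8, 10, 2, 8 and 5 were called in the main setting in 22Rv1 overexpression, LNCaP overexpression, shRNA against scramble, scramble against control, shRNA against control, LNCaP against 22Rv1 control, and the difference between lines. With 1 probe set per gene, so only 6 members, the counts were 4, 4, 3, 3, 1, 3 and 1. With values under 4 set to 4 they were, in the same order, 7, 7, 6, 6, 1, 4 and 5. Fitting only the arrays compared gave 10, 5, 8, 11, 4, 9 and 4. Leaving out 1 array gave 7 to 8, 6 to 9, 7 to 8, 8 to 10, 1 to 2, 7 to 9 and 4 to 8. With the replicate number as a block the counts were 9, 7, 8, 10, 2, 7 and 4. Same-numbered arrays correlated at -0.137 to 0.386 in their deviations from group means, and 0 of 6 comparisons had every pair over 0.1. The main fit therefore did not pair arrays by replicate number. With so few pairs this check cannot exclude shared batches or cultures. The block ended 2 calls, of CUX1 225937_at between the control lines and of ONECUT2 230271_at in the difference between lines (adjusted p = 0.053 and 0.0512). The beta-actin difference between scramble and control ran from -0.38 to 0.0059 on leaving out 1 array, and between LNCaP overexpression and control from -0.40 to 0.13. No called difference reversed under any alternative run. CUX2 213920_at kept its calls in both lines under every alternative, with differences of 2.95 to 4.13 in 22Rv1 and 3.92 to 4.31 in LNCaP. Values under 4 limit what can be said of ONECUT1, ONECUT3 and SATB1 in LNCaP.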
